A study of Arabidopsis thaliana with 18 samples.

Results

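The Aux/IAA, ARF and TIR1/AFB genes of Arabidopsis thaliana encode the nuclear core of auxin signaling, and the present account follows 47 of them in the first leaf pair of wild type (WT) plants and of plants that overexpress PINOID (PID). Membership followed locus identifiers and used no measured value, giving 27 Aux/IAA genes, 15 ARF genes and 5 TIR1/AFB genes among the 28642 loci for which reads were deposited. Of the 47 genes, 40 had enough reads to be tested, together with all other expressed genes of the genome, and 7 Aux/IAA genes fell below the read filter. WT was the accession Col-0, and P10 and P21 were independent 35S::PID lines, in which the PID coding sequence stands behind the CaMV 35S promoter, a promoter that is active in most cell types. Each genotype was sampled at 9 days after stratification (DAS), the cold treatment of sown seed,, when the first leaves still proliferate, and at 16 DAS, when they expand. All plants shared the Col-0 background, grew on MS medium in a long light period and received no treatment, and whole leaf tissue was taken. RNA was sequenced from 3 libraries of WT and of P10 and from 2 libraries of P21 on each day, the third library of P21 (replicate 1) not being analysed here. The labels do not say whether replicates were separate cultures, so p-values measure the spread between these libraries, which may be technical.

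Auxin acts as a glue between a TIR1/AFB F-box protein, the substrate adaptor of an SCF ubiquitin ligase, and the degron of an Aux/IAA repressor, which is then ubiquitinated and degraded. Aux/IAA proteins bind ARF transcription factors and recruit TOPLESS corepressors to them, so that their loss releases ARF activity at auxin response elements. Many Aux/IAA genes are themselves ARF targets and rise quickly after auxin is given, which closes a negative feedback loop, whereas ARF and receptor transcripts are in part under the control of small RNAs. PID is a protein kinase that phosphorylates PIN auxin efflux carriers and sets their place in the cell. The comparison of the lines with WT therefore asks how the transcripts of the signaling core differ when this regulator of auxin transport is overproduced.

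The Aux/IAA degron is the stretch on which auxin perception rests, and it divides the family. Its core, the amino acids glycine, tryptophan, proline and proline in a row, was found in the RefSeq (TAIR10.1) proteins of 22 of the 27 Aux/IAA genes. The other 5 (IAA20, IAA30, IAA31, IAA32 and IAA34) lacked it, and these were also among the least read, with 4 to 32 reads over all 16 libraries. The leucine pattern LxLxL (x being any amino acid), the form of the repressor motif that binds TOPLESS, occurred somewhere in all 27 proteins. Its place in the protein and its share among other proteins were not examined, so a working motif is not shown. The degron codons of the Aux/IAA genes on which the results below turn are shown 5′ to 3′ on the coding strand, with the codons of the core in capitals. They lie at chr5:9033812-9033841 on the plus strand for IAA28, chr1:1136938-1136967 on the plus strand for IAA17, chr3:5264307-5264336 on the plus strand for IAA19 and chr4:8361436-8361465 on the plus strand for IAA1, in each case within the coding sequence.
IAA28: ccagtggtgGGATGGCCGCCGgtgagatca
IAA17: caagttgtgGGATGGCCACCGgtgagatca
IAA19: caggtggtgGGGTGGCCACCGgtttgttct
IAA1: caaatcgttGGATGGCCTCCAgtgagatct

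Small RNAs divide the ARF and receptor genes in the same manner. The mature sequences of miR160a, miR167a, miR393a and miR847 and a 21-base window of the TAS3 transcript, the source of the trans-acting small RNAs against ARF genes, are given first, with bases 2 to 8 (the seed) in capitals. They come from RefSeq (TAIR10.1), at chr2:16340282-16340302 (plus), chr3:8108090-8108110 (plus), chr2:16652111-16652132 (plus), chr1:2165675-2165695 (plus) and chr3:5862205-5862225 (plus). miR160a, miR160b and miR160c had identical mature sequences, as had miR393a and miR393b, whereas miR167c was shifted by 1 base against miR167a and so carried another seed. The TAS3 window was selected as the stretch with the lowest summed mismatch to ARF2, ARF3 and ARF4 (2.5, against 4.5 for the next window), so that its pairing with them is no finding.
miR160a: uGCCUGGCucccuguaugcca
miR167a: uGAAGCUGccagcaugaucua
miR393a: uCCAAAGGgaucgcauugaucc
miR847: uCACUCCUcuucuucuugaug
TAS3 window: uUUCUUGAccuuguaagaccc

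For each of them the best matching site in a member that was called in at least 1 comparison is given, as the transcript reads 5′ to 3′, with bases that form a G-U wobble or no pair in capitals. All of these sites lie in coding sequence, at chr2:12115741-12115761 (plus) for ARF10, chr1:10686478-10686498 (minus) for ARF6, chr4:1405341-1405362 (minus) for AFB1, chr5:9033877-9033897 (plus) for IAA28 and chr5:24913262-24913282 (plus) for ARF2.
ARF10 under miR160a: AggAatacagggagccaggca
ARF6 under miR167a: GagatcaGgctggcagcttGT
AFB1 under miR393a: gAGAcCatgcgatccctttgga
IAA28 under miR847: GatGaagaagaagGAgagtga
ARF2 under the TAS3 window: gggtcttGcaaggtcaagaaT
The miR160 site was also present in ARF16 and ARF17, the miR167 site in ARF8, the miR393 site in TIR1, AFB2 and AFB3, and the TAS3 site at 2 positions each in ARF3 and ARF4. The search for further matches covered only other members of the same family, 12 ARF genes for miR160a, 13 for miR167a and AFB5 alone for miR393a. No other genes were searched, and miR847 and the TAS3 window were not included. The closest match among the genes searched was poorer. It had 5 unpaired bases and 3 wobbles in ARF6 for miR160a, 5 and 2 in ARF19 for miR167a, and 6 and 2 in AFB5 for miR393a. IAA28 paired with miR847 with 3 unpaired bases and 1 wobble. The small RNAs themselves were not measured, since the libraries were made from poly-A RNA.

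The promoters, taken as the 250 bases before the RefSeq gene start, were searched on both strands for the auxin response elements TGTCTC (reverse complement GAGACA) and TGTCGG (reverse complement CCGACA), which cannot overlap from the same start. TGTCTC stood in 9 of 27 Aux/IAA promoters (33.3%), 1 of 15 ARF promoters (6.67%) and 1 of 5 receptor promoters (20%), against 10.9% of 27443 promoters of protein-coding genes. TGTCGG stood in 6 Aux/IAA promoters (22.2%) and 2 ARF promoters (13.3%), against 4.16% of all promoters. At least 1 of the elements was found in 17 of the 47 members (36.2%) and in 14.7% of all promoters. The promoters of IAA19, at chr3:5263751-5264000 (plus), and of IAA1, at chr4:8360746-8360995 (plus), are shown with the elements in capitals because both genes are among those described below, and IAA19 carried 3 copies of TGTCTC. A match describes these letters only and is not evidence of a bound site.
IAA19 promoter: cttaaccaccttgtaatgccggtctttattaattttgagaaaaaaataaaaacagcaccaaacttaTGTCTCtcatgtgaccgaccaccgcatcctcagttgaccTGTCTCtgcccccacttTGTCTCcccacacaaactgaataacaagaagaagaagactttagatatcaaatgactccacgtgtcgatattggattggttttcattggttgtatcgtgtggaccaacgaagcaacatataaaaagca
IAA1 promoter: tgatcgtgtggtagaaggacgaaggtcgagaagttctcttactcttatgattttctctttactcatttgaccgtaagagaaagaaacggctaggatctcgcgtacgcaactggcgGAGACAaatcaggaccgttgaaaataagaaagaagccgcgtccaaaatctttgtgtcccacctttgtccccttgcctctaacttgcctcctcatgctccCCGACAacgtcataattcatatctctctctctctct

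The 16 libraries held 1193042 to 4695692 uniquely assigned gene reads (median 2631344), the depth behind all values below. PID itself checked the labels, at 3.19 to 5.92 CPM in WT, 446 to 882 CPM in P10 and 368 to 961 CPM in P21 (CPM, counts per 1e+06 reads after TMM scaling of the library sizes). Leaf markers were high in every library (summed level of 5 genes 36197 to 63695 CPM), whereas 5 root markers summed to at most 8.95 CPM, 4 flower markers to at most 3.31 CPM and 4 meristem markers to at most 8.99 CPM at 9 DAS and 0.396 CPM at 16 DAS. In clock genes, the replicate 2 libraries of WT and P10 at the younger stage stood apart, with CCA1 at 26.2 and 39.0 CPM against 78.9 to 259 CPM in the other 9 DAS libraries, and PRR5 at 48.9 and 40.5 CPM against at most 4.25 CPM. WT and P10 at 9 DAS carried another second index sequence than all other libraries. Therefore index and biology cannot be told apart in P21 against WT or P10 at 9 DAS, or between the days in WT and P10, whereas P10 against WT on either day, all comparisons at 16 DAS and the days in P21 are free of this. By its column header, replicate 2 of P21 at 9 DAS came from another lane than all other libraries. Without it, 7 rather than 11 members were called between the days in P21 (IAA12, IAA14, IAA29 and ARF11 were lost), and ARF7 was not called in P21 against WT at 9 DAS (adjusted p = 0.18). In whole leaves, fewer cells of a type and less RNA per cell cannot be told apart.

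Levels of different members were compared per length, as the RPKM deposited by the authors, which were calculated on the full gene region and so include introns in the length. In WT at 9 DAS the most abundant Aux/IAA transcript was IAA8 at 114 ± 13.2 RPKM (SD, n = 3), and the Aux/IAA median was 4.86 RPKM, with 3 genes listed at 0. ARF2, a repressor-type ARF known for restraining organ growth, led the ARF genes at 34.4 ± 3.08 RPKM (n = 3), with a class median of 6.47 RPKM and ARF19 lowest at 2.26 ± 0.380 RPKM. The receptors lay closer together, from TIR1 at 38.9 ± 4.73 RPKM to AFB1 at 15.9 ± 4.85 RPKM. Hence the Aux/IAA genes spanned a far wider range than the ARF and receptor genes in the same leaves, and they held 66.7% of the summed RPKM of the 47 members.

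At 16 DAS the order changed at the ends. IAA8 was still first in WT at 71.5 ± 4.49 RPKM, ARF2 was at 36.9 ± 1.68 RPKM, ARF5 was now the lowest ARF at 1.49 ± 0.653 RPKM, and AFB1 the lowest receptor at 1.78 ± 0.342 RPKM beside TIR1 at 28.7 ± 2.80 RPKM. In P10 the highest Aux/IAA was IAA16 at 104 ± 11.5 RPKM, ARF2 stood at 73.3 ± 2.84 RPKM and AFB3, at 39.1 ± 2.96 RPKM, was the highest receptor. P21 had the same leading genes as WT at 16 DAS, with IAA8 at 66.5 ± 7.40 RPKM, ARF2 at 35.4 ± 1.25 RPKM and TIR1 at 28.9 ± 1.26 RPKM (n = 2). The median over the 47 members, averaged over libraries, was 5.85 RPKM in WT, 9.56 RPKM in P10 and 5.98 RPKM in P21 at 16 DAS. With unique reads per kilobase scaled by TMM instead, WT was at 7.09 and P21 at 7.46. P10 was again the highest, but its excess over WT was smaller than in RPKM. The RPKM carry no TMM scaling, and for ARF2 they likewise set P10 further above WT than scaled values did. In TMM-scaled CPM, ARF2 was at 211 to 227 in WT and at 357 to 404 in P10 at 16 DAS. Differences between P10 and WT in RPKM at this age are therefore not read as effect sizes.

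**Figure D1:**
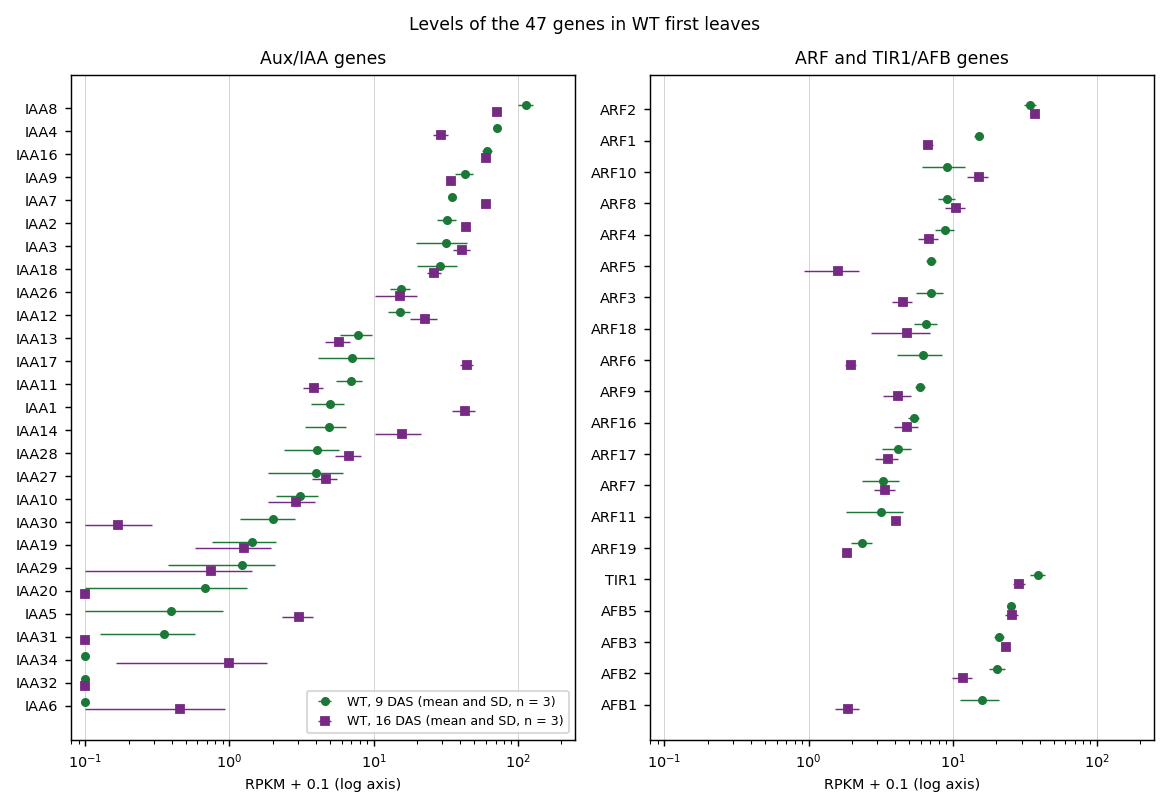
Levels of the 47 genes in WT first leaves as RPKM + 0.1 on a log axis, by gene, at 9 DAS (circles) and 16 DAS (squares), mean and SD of 3 libraries. The Aux/IAA genes run from 0 to 114 ± 13.2 RPKM, whereas the receptors other than AFB1 stay within a narrow band on both days.

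The 7 members below the read filter were IAA5 with 70 reads over all libraries, IAA30 with 32, IAA20 with 19, IAA6 with 18, IAA34 with 16 and IAA31 and IAA32 with 4 each. They were removed before testing, so their values are given without a test. IAA5, an auxin-induced gene, had 0 to 2 reads in each 9 DAS library and 3 to 15 in each 16 DAS library (at most 0.715 and at least 2.23 CPM), and IAA30 had 29 reads over the 9 DAS libraries and 3 over the 16 DAS libraries. The tested members were read uniquely, since unique reads made up at least 99.7% of the total gene reads of each member (AFB3 lowest), so that assignment between paralogs had little room. The gene regions of IAA13, ARF7, AFB1 and AFB3 overlap a neighbour on the opposite strand, over 38.4%, 4.48%, 2.26% and 2.49% of their length, and whether strand was used in counting is not given in the sources used here.

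At 16 DAS, P10 leaves contained more transcript of members of all 3 families than WT leaves, and less of the repressor IAA17. Of the 40 tested members, 8 rose and 1 fell. A gene is called when its adjusted p lies under 0.05 (edgeR quasi-likelihood test, Benjamini-Hochberg over all genes) and its log2 fold change is beyond 0.75. Among all 16499 genes tested, 15.8% were called, 8.10% higher and 7.69% lower. The 9 calls among 40 members were mostly higher, whereas the calls over all genes were nearly balanced. The higher ones were IAA11, IAA19 and IAA28 of the Aux/IAA genes, ARF2, ARF5, ARF7 and ARF18 of the ARF genes and AFB1 of the receptors, and the lower one was IAA17. The median log2 fold change of the members was 0.30, against 0.02 for all genes, and 29 of the 40 were above 0. Library totals without TMM factors moved the median of all genes by 0.22 and the share of higher calls from 51.3% to 74.8%, and then gave 11 members higher and 1 lower.

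IAA28, an Aux/IAA repressor known from a stabilizing mutation that blocks lateral root formation, is locus AT5G25890 at chr5:9033415-9034834 (TAIR10, as for the positions of the genes that follow). At 16 DAS it was at 9.25, 13.9 and 11.2 CPM in WT, at 41.0, 36.0 and 41.2 CPM in P10 and at 10.1 and 17.2 CPM in P21. All P10 libraries lay above all others, with more than 2-fold between them and the highest P21 library, while P21 overlapped WT. P10 exceeded WT by a log2 fold change of 1.76 (SE 0.28, adjusted p = 1.8e-04, edgeR) and P21 by 1.50 (SE 0.31, adjusted p = 0.0021). IAA28 kept both calls in all 25 alternative settings.

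ARF18 (AT3G61830, chr3:22887889-22891435), an ARF of the repressor type, was at 20.4, 11.7 and 29.1 CPM in WT, at 64.0, 79.3 and 42.4 CPM in P10 and at 25.9 and 23.7 CPM in P21 at 16 DAS. Again each P10 library exceeded each WT and P21 library. The difference from WT was 1.69 on the log2 scale (SE 0.27, adjusted p = 2.0e-04), called in all 25 settings, and that from P21 was 1.32 (SE 0.29, adjusted p = 0.0037), which was lost without replicate 3 of P21 (1.23, adjusted p = 0.062). ARF2 (AT5G62000, chr5:24910358-24915210), the most abundant ARF and a target of TAS3-derived small RNAs, was at 211, 227 and 215 CPM in WT, 357, 357 and 404 CPM in P10 and 211 and 218 CPM in P21. Its P10 libraries were well apart from the rest, and WT and P21 coincided. On the log2 scale it was higher by 0.78 than WT (SE 0.13, adjusted p = 2.6e-04) and by 0.80 than P21 (SE 0.15, adjusted p = 7.8e-04). As these values lie close to the fold limit, ARF2 was at the limit or under it without replicate 3 of P10 (0.71 and 0.74) or replicate 3 of WT (0.75 against WT), with adjusted p of at most 0.0039 in each case.

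The activator-type ARF genes ARF5 and ARF7 were both higher in P10 than in WT. ARF7 (AT5G20730, chr5:7016445-7022113), known as NPH4 from phototropism, was at 24.9, 25.6 and 17.9 CPM in WT, 36.1, 43.3 and 43.6 CPM in P10 and 29.4 and 27.1 CPM in P21. P10 did not overlap with WT or P21, and P21 lay between them. The log2 fold change against WT was 0.82 (SE 0.21, adjusted p = 0.009), and without replicate 3 of WT it was 0.69 (adjusted p = 0.041), under the fold limit. ARF5 (AT1G19850, chr1:6886879-6891374), the MONOPTEROS gene of embryo and vein patterning, was at 6.38, 5.96 and 11.9 CPM in WT, 15.6, 13.4 and 14.3 CPM in P10 and 9.22 and 8.92 CPM in P21. Replicate 3 of WT was close to P10, though still below it. Its log2 fold change was 0.95 (SE 0.29, adjusted p = 0.021), and this call was lost without replicate 1 or 2 of WT or replicate 1 or 3 of P10, with values of 0.74 to 0.95 and adjusted p of 0.057 to 0.13. The remaining activator-type genes ARF6, ARF8 and ARF19 were not called.

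IAA19 (AT3G15540, chr3:5264024-5265678), an auxin-induced repressor known to act with ARF7 in hypocotyl bending, was at 1.59, 3.97 and 1.49 CPM in WT, 11.5, 10.7 and 5.94 CPM in P10 and 1.76 and 3.69 CPM in P21. P10 was above both other genotypes in each library, at low counts. In log2 terms the difference was 1.80 against WT (SE 0.49, adjusted p = 0.012) and 1.68 against P21 (SE 0.55, adjusted p = 0.036). The call against WT was lost without replicate 1 of WT (1.53, adjusted p = 0.063), and that against P21 without replicate 1 or 2 of P10 or either library of P21 (adjusted p of 0.08 to 0.22). IAA11 (AT4G28640, chr4:14142130-14143969) was at 8.93, 9.68 and 6.71 CPM in WT, 15.6, 15.3 and 15.5 CPM in P10 and 10.1 and 10.8 CPM in P21. Its P10 libraries were almost identical and lay above all others. The difference from WT was 0.82 on the log2 scale (SE 0.25, adjusted p = 0.021), with adjusted p of 0.054 to 0.064 without replicate 1 or 3 of WT or replicate 3 of P10.

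IAA17 (AT1G04250, chr1:1136258-1138613), known as AXR3 from a stabilizing mutation with strong auxin resistance, was the only member called lower in P10. It was at 114, 132 and 132 CPM in WT, 50.1, 58.6 and 62.6 CPM in P10 and 119 and 128 CPM in P21. All P10 libraries lay below all libraries of WT and P21, and P21 lay within WT. The log2 fold change was -1.12 against WT (SE 0.31, adjusted p = 0.018) and -1.10 against P21 (SE 0.34, adjusted p = 0.033). Each single P10 library was needed for the call against WT, since without replicate 1, 2 or 3 the adjusted p was 0.06, 0.053 and 0.051 at log2 fold changes of -1.07 to -1.19. The call against P21 was lost when any library of P10 or P21 at 16 DAS was left out (adjusted p of 0.076 to 0.15).

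Of the receptors, AFB1 (AT4G03190, chr4:1404887-1407139), which is known for fast auxin responses of roots, was at 5.42, 5.21 and 3.73 CPM in WT, 10.7, 13.8 and 11.1 CPM in P10 and 6.58 and 6.15 CPM in P21. All P10 libraries were higher than the rest. The log2 fold change against WT was 1.26 (SE 0.36, adjusted p = 0.016), and the adjusted p was 0.051 without replicate 2 of WT and 0.07 without replicate 2 of P10. AFB3, IAA16 and ARF1 passed the adjusted p but not the fold limit in P10, at 0.52 (adjusted p = 0.0088), 0.58 (adjusted p = 0.0045) and 0.59 (adjusted p = 0.016). The members that were not called ranged from -0.55 (IAA26) to 1.50 (IAA29) among the Aux/IAA genes, from -0.51 (ARF17) to 0.59 (ARF1) among the ARF genes and from -0.10 (AFB5) to 0.52 (AFB3) among the receptors. IAA29 was read at 2.46, 1.92 and 2.38 CPM in P10 and at 0.957, 0 and 2.24 CPM in WT, too few reads for its value to be read as a difference.

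**Figure D2:**
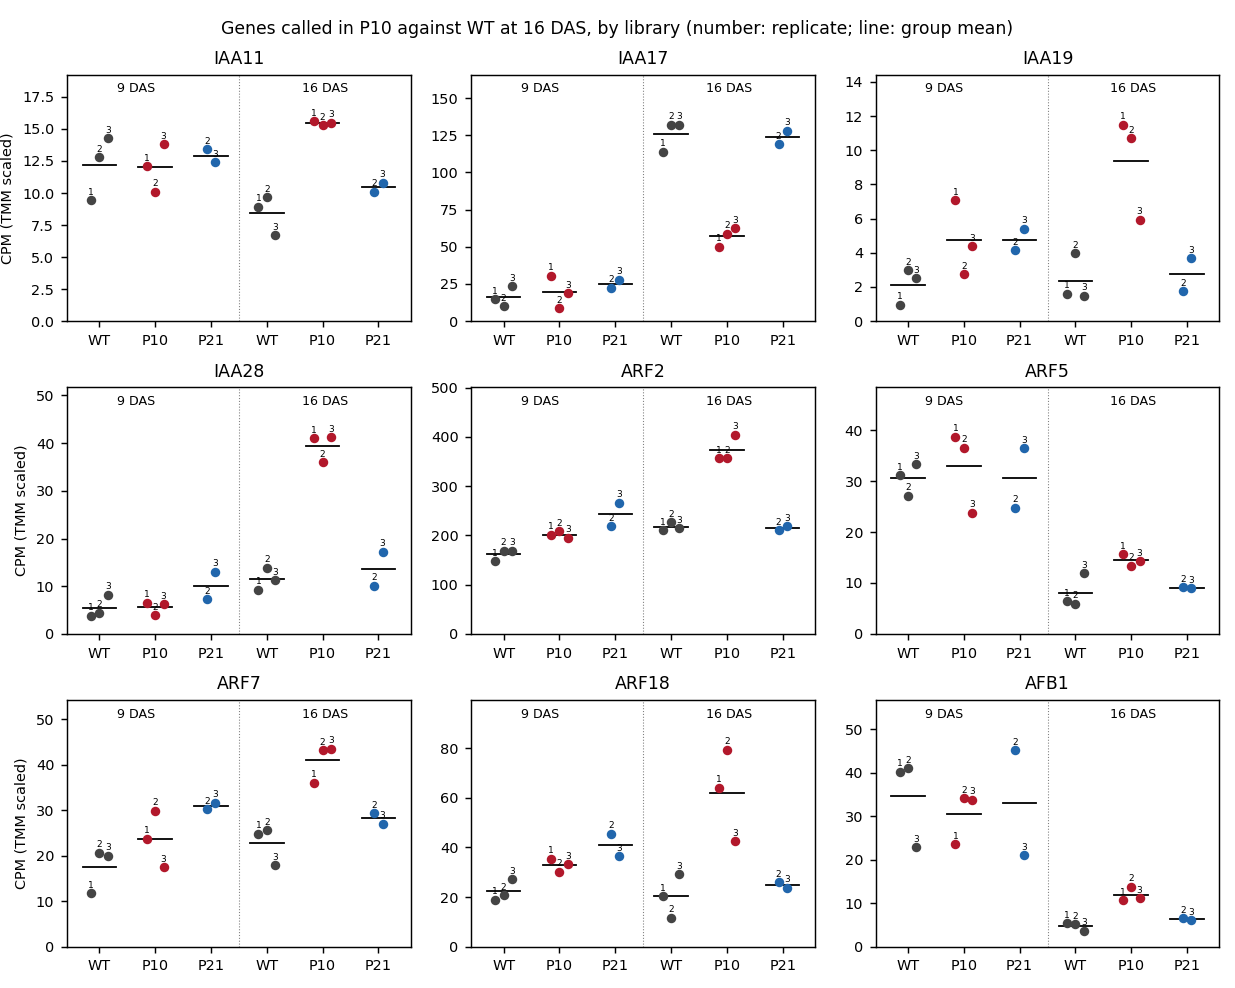
CPM (TMM scaled) of the 9 genes called in P10 against WT at 16 DAS in each of the 16 libraries, by genotype and day; points are libraries with their replicate number, lines are group means. At 16 DAS the P10 libraries stand apart from WT and P21 in each panel, for IAA28 at 36.0 to 41.2 CPM above 9.25 to 17.2 CPM, and for IAA17 below.

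Without P10 replicate 3, 5 members were called in P10 against WT at 16 DAS in place of 9. Leaf markers moved with this comparison, for their summed level was 36197 to 45473 CPM in P10, 50450 to 59822 CPM in WT and 61530 to 63695 CPM in P21. The median log2 fold change of the 5 genes was -0.49 in P10 against WT, with none of them called. In P10 against P21 it was -0.56, with 2 called lower, and 1 was called lower for the change of P10 minus WT between the days. The part of leaf markers in the differences of the members was not tested. The sums of 9 dividing cell markers overlapped at this age, at 28.5 to 39.4 CPM in P10, 26.5 to 35.5 CPM in WT and 31.2 to 33.8 CPM in P21. None of them was called in P10 against WT, and 1 was called lower in P10 than in P21. Of 29 tested genes around the signaling core, 5 were called in P10 at 16 DAS (17.2%, close to the 15.8% of all genes). None of 9 tested SCF and cullin pathway genes was called, with RCE1, the RUB-conjugating enzyme, past the adjusted p but not the fold limit (-0.66, adjusted p = 0.0031), and of 5 TOPLESS corepressor genes only TPR3 was called, lower (-1.04, adjusted p = 0.0049). Of 7 tested GH3 and other auxin-induced genes, HAT2, an auxin-induced homeodomain gene, rose (1.20, adjusted p = 6.5e-05) and ACS4, an auxin-induced gene of ethylene synthesis, fell (-1.99, adjusted p = 0.033), and of 8 SAUR genes, SAUR15 (-1.58, adjusted p = 0.0089) and SAUR16 (-1.03, adjusted p = 0.0014) fell. IAA1, IAA19, HAT2, ACS4, SAUR16 and GH3.6 also stand in a table that the study picked from these samples, so that their direction is no independent evidence.

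At 16 DAS the lines were compared with WT and with each other. Against WT, no member was called in P21 at this age with edgeR, where 0.127% of all genes were called; 5 members had an unadjusted p under 0.05, and DESeq2 called 0. The largest of those 5 values were 0.81 for ARF6 (adjusted p = 0.45) and -0.87 for ARF17 (adjusted p = 0.51). The median of the members was 0.07, against 0.00 for all genes. Both line comparisons share the WT libraries, so the direct one is the test of the difference. In P10 against P21, 4 members were higher (IAA19, IAA28, ARF2 and ARF18) and 1 was lower (IAA17), where 14.9% of all genes were called, 7.59% higher and 7.32% lower. These 5 of 40 members are no larger a share than that of all genes. Without TMM factors the share of higher calls among all genes was 77.9% rather than 50.9%, the median of all genes moved by 0.24, and 12 members were higher and none lower. Between 2 and 6 members were called when a library was left out, the fewest without replicate 3 of P21 and 3 without replicate 1 or replicate 3 of P10. ARF5 (0.65, adjusted p = 0.15), ARF7 (0.55, adjusted p = 0.11), AFB1 (0.92, adjusted p = 0.11) and IAA11 were not called between the lines.

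**Figure D3:**
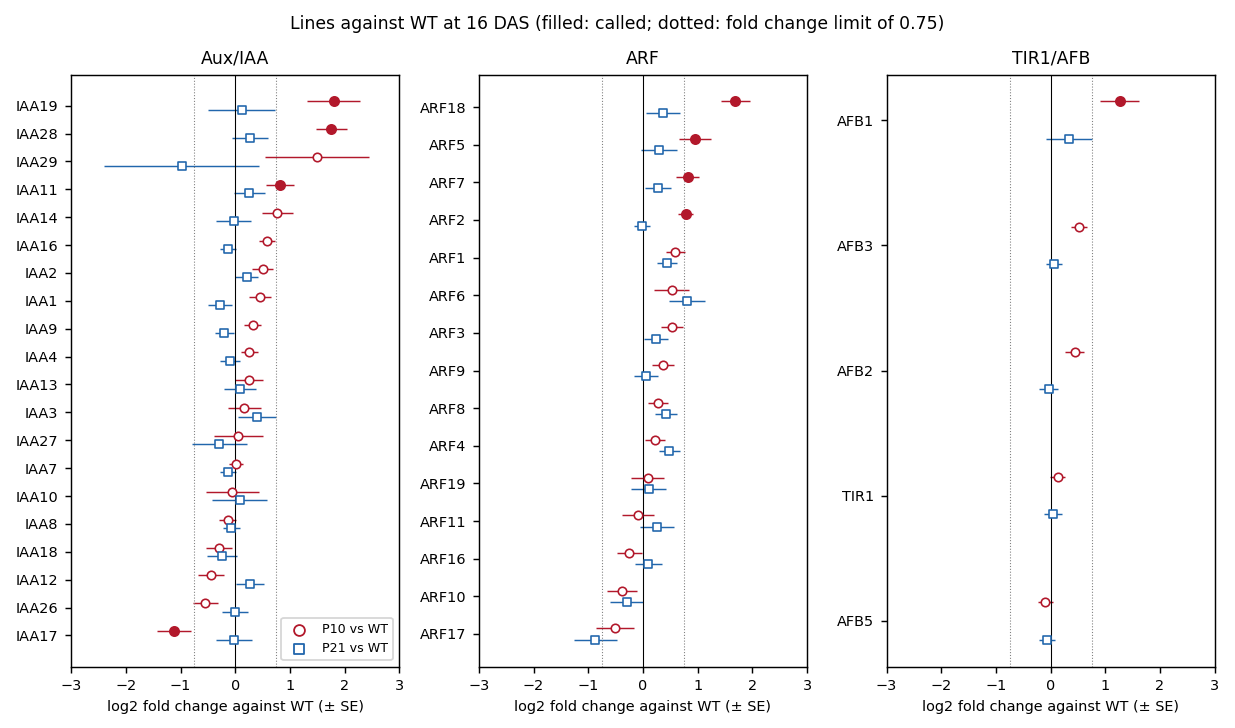
Log2 fold change against WT at 16 DAS (± SE) of the 40 tested genes in P10 (circles) and P21 (squares), by family; filled symbols are called and dotted lines mark the fold change limit of 0.75. Filled symbols occur only for P10, with IAA17 at -1.12 as the single one on the left.

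At 9 DAS few of these genes were called in the lines against WT. An uncalled member is not thereby shown to be unchanged. On simulated counts, 48 of 100 genes changed by 1 on the log2 scale were recovered in P10 and 42 in P21. Uncalled Aux/IAA genes ran from -0.31 (IAA4) to 1.47 (IAA29) in P10 and from -0.84 (IAA26) to 1.88 (IAA29) in P21, where IAA29 had few reads. In P10, edgeR called no member, against 0.339% of all genes; 4 members had an unadjusted p under 0.05, and DESeq2 called 0. IAA1 (AT4G14560), an early auxin-induced Aux/IAA gene, was at 5.20, 2.96 and 5.01 CPM in WT, 13.7, 7.62 and 8.77 CPM in P10 and 5.86 and 7.62 CPM in P21. The P10 libraries were all above WT, by 1.20 on the log2 scale (SE 0.30), yet the adjusted p was 0.079. For the others the adjusted p was 0.18 to 0.39, with AFB3 at 0.44, IAA19 at 1.15 and ARF2 at 0.32.

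In P21 at 9 DAS, 1 member was called higher than in WT, ARF7, where 5.39% of all genes were called (2.61% higher). It was at 11.8, 20.7 and 20.0 CPM in WT, 23.8, 29.9 and 17.5 CPM in P10 and 30.3 and 31.7 CPM in P21. P21 was above every WT library, while P10 spread over both. The log2 fold change was 0.82 (SE 0.24, adjusted p = 0.048), just past the threshold, and it was called in only 7 of 25 settings; without replicate 1 of WT it was 0.58 (adjusted p = 0.2), and DESeq2 called no member. ARF2 passed the adjusted p but not the fold limit (0.58, adjusted p = 0.017), at 147, 169 and 169 CPM in WT, 201, 208 and 195 CPM in P10 and 219 and 266 CPM in P21. ARF18 was at 18.9, 20.7 and 27.2 CPM in WT, 35.4, 30.2 and 33.2 CPM in P10 and 45.5 and 36.5 CPM in P21, a difference of 0.87 in P21 with an adjusted p of 0.078. In ARF2 and ARF18 neither line overlapped WT, and the same held for IAA1 and AFB3, none of which was called in either line at this age. Of the 40 tested members, 5 did not overlap WT in P10 and 12 did not in P21. Groups of 2 or 3 libraries can separate without a difference, and the share over all genes was not counted, so no shared effect is read from this. P21 differs from WT in its index at this age, and its dividing cell markers summed to 229 to 234 CPM against 299 to 374 CPM in WT, with KNOLLE called lower (-0.77, adjusted p = 0.033); the part of these in the values of the members was not tested.

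P10 against P21 at 9 DAS gave no member with edgeR, where 0.0364% of all genes were called; 3 members had an unadjusted p under 0.05 and DESeq2 called 0. Outside the members, GH3.6, an auxin-conjugating enzyme gene of the same feedback system, was lower than WT in both lines at 9 DAS. It was at 66.6, 36.5 and 37.6 CPM in WT, 8.35, 13.1 and 11.9 CPM in P10 and 16.9 and 10.5 CPM in P21, with log2 fold changes of -2.09 in P10 (adjusted p = 0.0035) and -1.78 in P21 (adjusted p = 0.0061). AXR1, a subunit of the enzyme that activates RUB, the modifier of the SCF cullin, was lower in P21 (-0.76, adjusted p = 0.04). No TOPLESS and no SAUR gene was called in either line at 9 DAS.

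Between 9 and 16 DAS, most tested members were not called within a given genotype, though 21 were called in at least 1 of the genotypes. Of the 20 tested Aux/IAA genes, 7 rose and 1 fell in WT, 8 rose in P10, and 6 rose and 2 fell in P21. Of the 15 ARF genes, 1 rose and 3 fell in WT, 3 rose and 2 fell in P10, and 1 rose and 1 fell in P21, and of the 5 receptors AFB1 alone fell, in each genotype. In all, 8 members rose and 5 fell in WT, where 36.0% of all genes were called. In P10, 11 rose and 3 fell (31.0% of all genes), and in P21, 7 rose and 4 fell (23.7% of all genes). The members were thus called about as often as all genes were. The median of the members was 0.19 in WT, 0.26 in P10 and -0.09 in P21, against -0.04, -0.03 and -0.02 over all genes. Library totals without TMM factors moved the median of all genes by -0.34 in WT, -0.13 in P10 and -0.39 in P21, and the share of higher calls among all genes from 51.8% to 30.2%, 53.4% to 43.9% and 53.5% to 22.3%. Among the members this gave 4 higher and 7 lower in WT, 10 and 3 in P10 and 5 and 8 in P21. Dividing cell markers moved with the days, all 9 being called lower in each genotype, to sums of 26.5 to 39.4 CPM. Of 10 tested clock genes, 2 rose and 2 fell between the days in WT, 2 rose and 1 fell in P10, and 1 rose in P21. The part of dividing cells or of the clock in the changes of the members was not tested.

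IAA1, IAA14 and IAA17 rose in all genotypes. At 16 DAS IAA1 was at 49.4, 57.1 and 38.0 CPM in WT, 75.5, 60.2 and 66.6 CPM in P10 and 38.6 and 42.7 CPM in P21, against at most 13.7 CPM at 9 DAS, so that the days were far apart. Its log2 change was 3.45 in WT (SE 0.26, adjusted p = 2.8e-09), 2.70 in P10 (SE 0.23, adjusted p = 1.5e-08) and 2.58 in P21 (SE 0.29, adjusted p = 2.5e-06), called in all 25 settings in each. IAA17 was at 14.6, 9.87 and 23.6 CPM in WT, 30.6, 8.53 and 18.8 CPM in P10 and 22.4 and 27.9 CPM in P21 at 9 DAS. The genotypes thus overlapped at 9 DAS, and P10 was apart from WT and P21 at 16 DAS, with changes of 2.93 in WT (SE 0.35, adjusted p = 9.1e-06), 1.55 in P10 (SE 0.34, adjusted p = 0.0022) and 2.29 in P21 (SE 0.40, adjusted p = 7.1e-04). The smaller rise in P10 differed from that in WT by -1.38 on the log2 scale, which was not called (adjusted p = 0.12). IAA14, known as SOLITARY-ROOT, was at 6.62, 10.9 and 13.2 CPM in WT, 12.1, 13.1 and 10.7 CPM in P10 and 8.27 and 19.7 CPM in P21 at 9 DAS, and at 43.4, 56.6 and 26.1 CPM, 67.3, 94.3 and 59.8 CPM, and 48.7 and 36.9 CPM at 16 DAS. The days did not overlap in any genotype, at changes of 2.06 (adjusted p = 8.7e-05), 2.61 (adjusted p = 5.8e-06) and 1.59 (adjusted p = 0.0049). In P21 this call was lost without replicate 2 at 9 DAS (1.12, adjusted p = 0.069).

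IAA2, IAA3, IAA7, IAA12, IAA16 and IAA26 rose in some genotypes. IAA7, known as AXR2, was at 88.4, 76.0 and 87.3 CPM in WT, 92.6, 80.1 and 85.8 CPM in P10 and 124 and 110 CPM in P21 at 9 DAS, and at 196, 175 and 174 CPM, 176, 192 and 178 CPM, and 153 and 177 CPM at 16 DAS. It was called in WT (1.11, SE 0.14, adjusted p = 1.3e-06) and P10 (1.08, SE 0.13, adjusted p = 2.3e-06) in all settings. IAA2 was at 32.1, 27.1 and 37.9 CPM in WT, 31.1, 25.0 and 35.7 CPM in P10 and 33.8 and 32.4 CPM in P21 at 9 DAS, and at 56.4, 52.9 and 55.9 CPM, 75.5, 65.2 and 92.7 CPM, and 79.4 and 48.9 CPM at 16 DAS. It rose by 0.75 in WT (adjusted p = 0.0039), a value at the limit that held in 8 of 25 settings, by 1.36 in P10 (adjusted p = 1.4e-05) and by 0.95 in P21 (adjusted p = 0.0052, and 0.13 at 0.57 without replicate 2 at 16 DAS). In WT the left-out values were 0.62 to 0.89, under the limit without replicate 1 or 2 at 9 DAS or replicate 1 or 3 at 16 DAS.

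IAA12, the BODENLOS repressor that pairs with ARF5 in the embryo, was at 25.5, 20.7 and 30.4 CPM in WT, 34.2, 24.4 and 21.9 CPM in P10 and 24.1 and 44.1 CPM in P21 at 9 DAS, and at 43.7, 60.1 and 40.2 CPM, 26.3, 42.5 and 36.8 CPM, and 64.9 and 53.2 CPM at 16 DAS. It rose in WT (0.92, adjusted p = 0.0043; 0.68 without replicate 2 at 16 DAS) and in P21 (0.78, adjusted p = 0.046), where the call was lost without replicate 2 at 9 DAS (0.43, adjusted p = 0.41) or either library at 16 DAS. The days overlapped in P10. IAA3, known as SHY2, was at 35.0, 30.1 and 61.5 CPM in WT, 50.4, 28.0 and 32.0 CPM in P10 and 34.8 and 55.6 CPM in P21 at 9 DAS, and at 78.1, 59.1 and 67.1 CPM, 88.7, 54.8 and 87.6 CPM, and 112 and 68.2 CPM at 16 DAS. It was called only in P10 (1.03, SE 0.32, adjusted p = 0.018), and not without replicate 2 or 3 at 9 DAS or replicate 1 or 3 at 16 DAS (0.82 to 0.96, adjusted p of 0.058 to 0.084).

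IAA16, a repressor whose stabilized form dampens auxin responses, was at 124, 106 and 125 CPM in WT, 117, 106 and 115 CPM in P10 and 115 and 118 CPM in P21 at 9 DAS, and at 152, 137 and 148 CPM, 227, 186 and 241 CPM, and 140 and 127 CPM at 16 DAS. It rose by 0.95 in P10 (SE 0.14, adjusted p = 1.3e-05), in all settings, and its P10 libraries at 16 DAS were the highest of all. The difference of this change from that in WT was 0.65 (adjusted p = 0.057). IAA26 was at 31.2, 30.6 and 23.6 CPM in WT, 20.2, 31.4 and 23.8 CPM in P10 and 17.9 and 13.7 CPM in P21 at 9 DAS, and at 27.4, 48.4 and 29.1 CPM, 22.2, 22.6 and 27.7 CPM, and 37.3 and 34.1 CPM at 16 DAS. Only P21 was called (1.18, adjusted p = 0.0042; without replicate 3 at 9 DAS 0.98, adjusted p = 0.058), its 9 DAS libraries being the lowest of all.

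IAA28 was at 3.78, 4.44 and 8.23 CPM in WT, 6.58, 3.96 and 6.27 CPM in P10 and 7.23 and 13 CPM in P21 at 9 DAS. Hence P10 overlapped WT at 9 DAS and stood at more than 2-fold above it at 16 DAS. It rose by 1.02 in WT (SE 0.34, adjusted p = 0.018) and by 2.81 in P10 (SE 0.31, adjusted p = 4.2e-07), and its change in P21 was 0.45 (adjusted p = 0.38). In WT the call was lost without replicate 1 or 2 at 9 DAS or replicate 2 at 16 DAS (0.78 to 0.86, adjusted p of 0.072 to 0.12). The change of P10 exceeded that of WT by 1.79 (SE 0.47, adjusted p = 0.033, edgeR), a comparison free of the index; IAA28 was the only member called there, where 4.70% of all genes were called, 2.08% higher. This call was lost without replicate 3 of WT at 9 DAS (1.33, adjusted p = 0.14), replicate 2 of P10 at 9 DAS (1.57, adjusted p = 0.067), or replicate 1 or 3 of either genotype at 16 DAS (1.64 to 1.77, adjusted p of 0.055 to 0.078). It was also lost without replicate 2 of both WT and P10 at 9 DAS, the libraries apart in clock genes (1.70, adjusted p = 0.075). Without TMM factors 5 members were higher and none lower in this comparison, the median of all genes moved by 0.21, and the share of higher calls among all genes was 74.9% rather than 44.2%. For the change of P21 minus that of WT, edgeR called no member, where 3.18% of all genes were called; 6 members had an unadjusted p under 0.05 and DESeq2 called 0.

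The repressor gene IAA4 and several ARF genes went the other way. IAA4 was at 96.9, 86.9 and 96.9 CPM in WT, 81.2, 76.5 and 67.7 CPM in P10 and 88.9 and 76.8 CPM in P21 at 9 DAS, and at 52.6, 50.6 and 40.2 CPM, 51.7, 57.9 and 63.0 CPM, and 53.1 and 38.1 CPM at 16 DAS. It fell in WT (-0.95, adjusted p = 5.5e-05) and in P21 (-0.87, adjusted p = 0.0021; without replicate 3 at 16 DAS -0.64, adjusted p = 0.064). IAA29, which is known as a target of PIF factors in shade, was at 2.84, 0.987 and 0.715 CPM in WT, 1.27, 5.79 and 6.27 CPM in P10 and 7.23 and 3.81 CPM in P21 at 9 DAS and at 0 and 0.615 CPM in P21 at 16 DAS. The fall in P21 (adjusted p = 0.014) rested on 33 against 2 reads, a ratio of 15 with a 95% exact Clopper-Pearson interval of 3.85 to 129 for counting error only. It was lost without replicate 2 of P21 at 9 DAS (adjusted p = 0.11) or at 16 DAS (adjusted p = 0.092).

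ARF5 fell in all genotypes. At 9 DAS it was at 31.2, 27.1 and 33.3 CPM in WT, 38.7, 36.6 and 23.8 CPM in P10 and 24.8 and 36.5 CPM in P21, above every 16 DAS library (5.96 to 15.6 CPM). The log2 change was -2.05 in WT (SE 0.26, adjusted p = 2.5e-06), -1.24 in P10 (SE 0.24, adjusted p = 3.6e-04) and -1.76 in P21 (SE 0.30, adjusted p = 2.3e-04), called in all settings. AFB1 fell in all genotypes as well, from 40.2, 41.0 and 22.9 CPM in WT, 23.5, 34.1 and 33.8 CPM in P10 and 45.1 and 21.0 CPM in P21 at 9 DAS to the 16 DAS values given above, of which the highest was 13.8 CPM. The changes were -2.77 in WT (SE 0.32, adjusted p = 7.5e-07), -1.32 in P10 (SE 0.29, adjusted p = 0.0012) and -2.37 in P21 (SE 0.37, adjusted p = 1.0e-04). For both genes the fall was smaller in P10 than in WT, by 0.81 for ARF5 (adjusted p = 0.21) and 1.45 for AFB1 (adjusted p = 0.067), differences that did not pass the test. No other receptor gene was called between the days, in any genotype.

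ARF6, an activator-type ARF under miR167, was at 26.5, 40.5 and 22.2 CPM in WT, 20.5, 44.5 and 24.4 CPM in P10 and 29.6 and 20.6 CPM in P21 at 9 DAS, and at 12.8, 10.9 and 10.4 CPM, 12.3, 18.0 and 18.2 CPM, and 21.1 and 19.4 CPM at 16 DAS. The highest values at 9 DAS were those of replicate 2 of WT and of P10, which also stood apart in clock genes. It fell in WT (-1.35, SE 0.30, adjusted p = 8.9e-04), and still did so when these libraries were left out, whereas the fall in P10 (-0.85, adjusted p = 0.023) was lost without replicate 2 of P10 at 9 DAS (-0.44, adjusted p = 0.24) and without replicate 1 at 16 DAS (-0.76, adjusted p = 0.07). IAA18, likewise apart in these libraries at 39.0 CPM in both against 52.0 to 91.1 CPM in the other 9 DAS libraries, was not called in any comparison. ARF1 was at 82.7, 71.1 and 72.6 CPM in WT, 78.7, 84.1 and 86.5 CPM in P10 and 66.8 and 70.8 CPM in P21 at 9 DAS, and at 41.1, 39.2 and 44.0 CPM, 54.2, 54.8 and 76.5 CPM, and 45.2 and 66.1 CPM at 16 DAS. The days did not overlap in any genotype. WT was called (-0.87, SE 0.17, adjusted p = 2.7e-04), and the changes in P10 (-0.41, adjusted p = 0.051) and P21 (-0.30, adjusted p = 0.28) were not.

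ARF2, ARF7, ARF10, ARF11 and ARF18 rose in single genotypes. ARF2 (0.88, SE 0.13, adjusted p = 1.5e-05), ARF18 (0.91, SE 0.25, adjusted p = 0.007) and ARF7 (0.77, SE 0.21, adjusted p = 0.0064) rose in P10 from the 9 DAS values given above, a comparison that shares its P10 libraries with that of P10 and WT at 16 DAS. ARF18 lost this call without replicate 2 of P10 at 16 DAS (0.66, adjusted p = 0.06), and ARF7, close to the limit, held it in 12 of 25 settings (0.63 without replicate 3 of P10 at 9 DAS). ARF10, a repressor-type ARF under miR160, was at 19.4, 16.3 and 30.8 CPM in WT, 38.7, 17.7 and 19.4 CPM in P10 and 26.9 and 43.8 CPM in P21 at 9 DAS, and at 49.1, 52.4 and 36.5 CPM, 36.9, 33.3 and 37.6 CPM, and 39.1 and 36.9 CPM at 16 DAS. The days were separate only in WT (1.05, SE 0.28, adjusted p = 0.0055), and replicate 1 of P10 at 9 DAS was as high as the 16 DAS libraries. ARF11 was at 5.67, 14.8 and 12.2 CPM in WT, 7.59, 14.9 and 13.2 CPM in P10 and 7.92 and 8.25 CPM in P21 at 9 DAS, and at 17.9, 17.9 and 17.1 CPM, 15.6, 13.4 and 20.6 CPM, and 19.3 and 22.4 CPM at 16 DAS. P21 was called (1.37, SE 0.36, adjusted p = 0.0072), though not without replicate 2 at 9 DAS (adjusted p = 0.058) or replicate 3 at 16 DAS (adjusted p = 0.06).

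**Figure D4:**
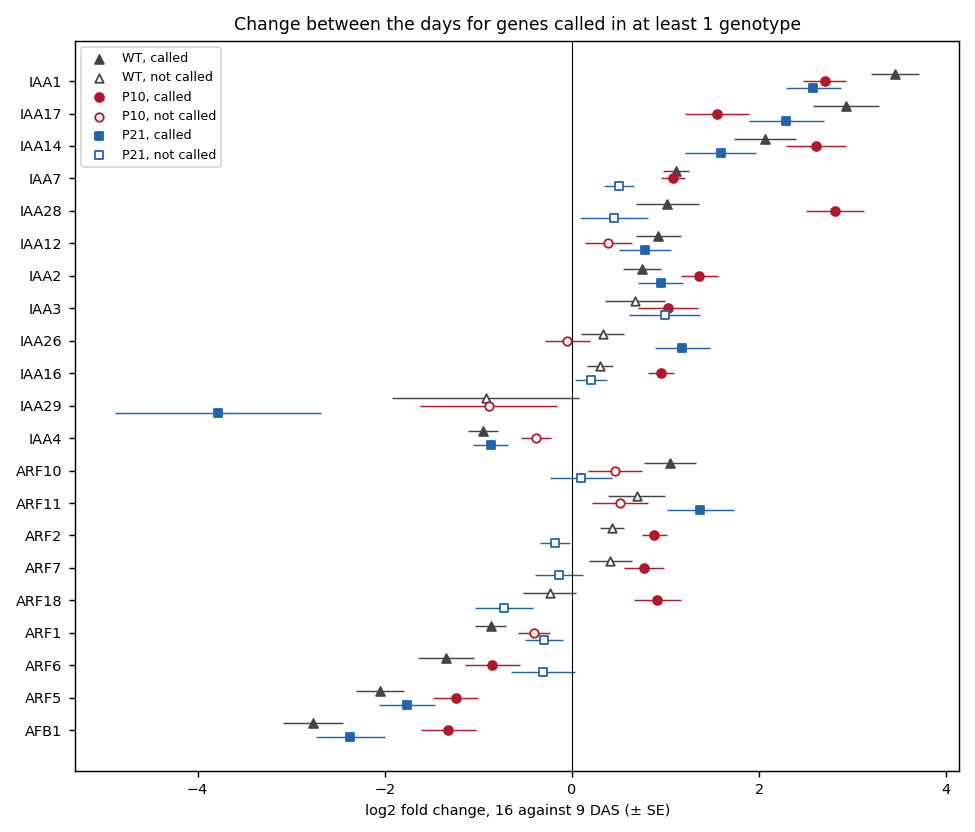
Log2 fold change of 16 against 9 DAS (± SE) in WT, P10 and P21 for the 21 members called in at least 1 genotype; filled symbols are called, open ones are not. IAA1, IAA14 and IAA17 lie to the right in all genotypes and ARF5 and AFB1 to the left, while IAA28 in P10, at 2.81, lies far to the right of WT at 1.02 and P21 at 0.45.

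Read by small RNA, none of the groups shown above was called as a whole. In P10 against WT at 16 DAS the values within each group nevertheless shared a direction, with the miR167 genes at 0.28 to 0.53. Between the days in WT, values of both signs occurred under miR167 (-1.35 to 0.52), miR393 (-2.77 to 0.50) and TAS3 (-0.29 to 0.43), but not under miR160 (0.13 to 1.05). Whether members of a group change together was not tested. The 3 miR160 genes were not called in P10 against WT at 16 DAS, at -0.51 to -0.25, and 1 of them, ARF10, rose between the days in WT. Of the 2 miR167 genes, ARF6 fell in WT and P10 whereas ARF8 was not called. Among the 4 miR393 genes the log2 fold changes in P10 against WT at 16 DAS were 0.13 to 1.26, with AFB1 as the only call, and AFB1 was also the only one to change between the days. ARF2 was the only call among the 3 genes with a TAS3 site (0.22 to 0.78 in the same comparison). With regard to the auxin response elements, 2 of the 9 members called in P10 against WT at 16 DAS (IAA19 and ARF7) carried one in the promoter window, against 9 of the other 31 tested members, and 2 of the 13 called between the days in WT did so, against 9 of the other 27. The remaining 6 genes with an element were among the 7 below the read filter. Classed by ARF type, 2 of 5 tested activator genes and 2 of 10 repressor-type genes were higher in P10 at 16 DAS, with medians of 0.53 and 0.29.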

How the data were processed

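Poly-A RNA of first leaves was sequenced with a stranded TruSeq kit, and the authors trimmed and mapped the reads with CLC Genomics Workbench v.6 at default settings to TAIR10 (build as in the submitters' processing notes). The deposited tables give, per gene and library, read counts (unique and total gene reads) and RPKM; the deposited RPKM equalled total gene reads per kilobase of gene region and 1e+06 gene reads to a relative deviation of at most 3.6e-15. Use of strand in counting is not given in the sources used here. Of 18 libraries in the labels, 16 had values (replicate 1 of P21 on both days not analysed here); 405 further per-sample columns were not used, nor were the authors' own comparison columns, which hold fold changes and p-values of their test. The 4 tables repeat the WT reads identically.

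Unique gene reads were tested with edgeR 4.0.16 (R 4.3.3; limma 3.58.1) by the quasi-likelihood test, with 1 mean per genotype and day over all 16 libraries, TMM factors (0.842 to 1.14) and filterByExpr, which kept 16499 and removed 12143 loci. Dispersion corresponded to a biological coefficient of variation of 18.8% (10 residual degrees of freedom). Within each of 11 comparisons, Benjamini-Hochberg adjustment ran over all genes, and calls required both adjusted p < 0.05 and an absolute log2 fold change > 0.75. Alternatives comprised DESeq2 1.42.0, other scalings and filters, total gene reads, a replicate block and leaving out each library. On simulated counts for 16499 genes, the procedure recovered 50 of 100 genes changed by 1 on the log2 scale and 91 of 100 changed by 2 in P10 against WT at 16 DAS, and 29 and 87 of 100 in P21 against WT at 16 DAS. At 9 DAS it recovered 48 and 88 in P10, and 42 and 86 in P21. In each simulated comparison 200 genes were changed, drawn from those with more than 10 expected reads in a library of median size. The data of P10 against WT at 16 DAS gave 2605 called genes. The recovery rates need not hold there, nor for members with few reads. Members called in any comparison are given by library, the remainder by class ranges. From the other gene lists, those called in a line against WT are named, up to 4 by size. Members and lists were chosen with earlier results of these data known. Sequences come from RefSeq TAIR10.1; all 47 members overlapped their deposited regions there, and 1 had identical ends.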

Additional observations from a re-analysis of the deposited data

Results flagged for a closer look

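The effect of P10 on IAA28 differed between the days: the log2 fold change of P10 against WT was higher by 1.79 at 16 than at 9 DAS (SE 0.47, adjusted p = 0.033, edgeR quasi-likelihood test of the interaction). At 9 DAS the P10 libraries were at 3.96 to 6.58 CPM within the WT range of 3.78 to 8.23 CPM, and at 16 DAS at 36.0 to 41.2 CPM above the WT range of 9.25 to 13.9 CPM. The interaction was called in 18 of 25 alternative settings, at 1.33 to 2.00, with adjusted p of 0.016 to 0.14. Without replicate 2 of WT and P10 at 9 DAS, which stood apart in clock genes, it was not called (1.70, adjusted p = 0.075).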

How the results depend on the processing

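In 25 alternative settings, 16 of which left out a library, no value of a member changed its direction while called. Members called at least once were followed over all comparisons, also those without a call. Of their values, 6120 stayed on the same side of the threshold, 133 fell below it and 63 passed it. Only a called value can fall below it. In every setting, 2 of 9 calls held in P10 against WT at 16 DAS and 1 of 5 in P10 against P21. Between the days it was 9 of 13 in WT, 10 of 14 in P10 and 3 of 11 in P21. The single calls of P21 against WT at 9 DAS and of the change of P10 minus WT did not hold in every setting. Leaving out a library gave 0 to 2 members in P21 against WT at 9 DAS, 5 to 10 in P10 against WT at 16 DAS, 2 to 6 in P10 against P21 at 16 DAS, 7 to 12 between the days in P21 and 0 to 2 for the change of P10 minus WT. It gave 11 to 14 between the days in WT and 12 to 15 in P10. The single member of P21 against WT at 9 DAS was not called by DESeq2, with only the groups compared in the fit or with total gene reads (0 members), and 2 were called with no fold change threshold. In P10 against P21 at 16 DAS, library totals alone gave 12 and no fold change threshold 9 members, in place of 5. For the change of P10 minus WT, library totals gave 5, no low-count filter 2 and only the groups compared 2 members, in place of 1. The median RPKM of the members at 16 DAS was 7.09 in WT and 7.46 in P21 when unique reads per kilobase with TMM-scaled sizes were used, in place of 5.85 and 5.98 with the deposited RPKM; the cause was not tested.

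Whether the replicate numbers pair the libraries was not settled. In their deviations from the group means, same-numbered libraries correlated at -0.26 to 0.47 and differently numbered ones at -0.44 to 0.52. Replicate 2 of WT and P10 at 9 DAS, the libraries apart in clock genes, correlated at 0.47. In P21, with 2 libraries per day, the deviations mirror each other by construction. With the replicate number as a block, 0 members were called in P21 against WT at 9 DAS, 10 in P10 against WT at 16 DAS, 5 between the days in P21 and 2 for the change of P10 minus WT. Between the days, the block left IAA2, IAA4, IAA12, IAA17 (1.39, adjusted p = 0.076), IAA26 and IAA29 uncalled in P21, IAA2, IAA12, IAA28 and ARF10 in WT, and ARF6 and ARF18 in P10, and of the line comparisons ARF7 in P21 against WT at 9 DAS and IAA19 between the lines at 16 DAS.

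Depth limited the result for the 7 members below the read filter and for IAA19, IAA29 and the low ARF genes. The fold limit of 0.75, with the adjusted p still under 0.05, ended the calls of ARF2 and ARF7 in P10 and most of those lost for IAA2 in WT, whereas ARF7 in P21 at 9 DAS was lost by its adjusted p.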
